A study of Mus musculus with 8 samples.

Results

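Voltage-gated sodium channels consist of a pore-forming alpha subunit and a set of auxiliary proteins that fix where the channel sits, how it gates and how long it stays in the membrane. Transcripts of 8 genes for such proteins were followed in Neuro2a cells, a mouse neuroblastoma line, among the 55367 genes of the count table. The rule that chose them lists them by name: Scn3b (a beta subunit), Fgf11, Fgf12, Fgf13 and Fgf14 (the FGF homologous factors, FHFs), Ank3 (ankyrin-G), Sptbn4 (beta-IV spectrin) and Nedd4l (a ubiquitin ligase). All 8 are rows of the table. Of these, 5 passed the filter on low counts and were tested.

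The cells were transfected with plasmids for CRISPR activation (CRISPRa), in which a catalytically inactive Staphylococcus aureus Cas9 fused to the activator VP64 (sadCas9-VP64) is brought to a gene by a single guide RNA (sgRNA). The title of the series names SCN2A, the gene of an alpha subunit, as the subject of the activation. The guide went into the CRISPRa samples at 750 ng beside 750 ng of the plasmid for sadCas9-VP64, whereas the "no sgRNA" control samples were given sadCas9-VP64 without it, in an amount the labels do not state. Both groups thus carry the activator, and the guide and the additional plasmid cannot be told apart. The labels list 4 samples per group, and counts were analysed for 3 of each, numbered 2, 3 and 5 (CRISPRa) or 2, 3 and 4 (no sgRNA). The labels do not say whether these came from separate cultures, so the p-values measure the spread between these libraries, which may be technical. All values are from bulk RNA of whole cultures, in which fewer expressing cells and less RNA per cell cannot be told apart.

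Libraries held 29739422 to 34248514 counts. Within each group the libraries numbered 2 and 3 were closest, and CRISPRa replicate 5 and no-sgRNA replicate 4 stood apart (chi-square per degree of freedom 4.73 and 5.98 for the close pairs, 14.1 to 17.1 for the others). Several values that depended on CRISPRa replicate 5 or no-sgRNA replicate 4 are therefore also given without that library. Scn2a was at 7.75, 8.55 and 7.12 CPM (counts scaled to library size) with CRISPRa and at 6.23, 6.5 and 4.11 CPM without the guide, each in the order of the replicate numbers (log2 ratio of CRISPRa to no sgRNA 0.48, SE 0.19, edgeR adjusted p 0.0899). The groups did not overlap, nor did they for 36.4% of all tested genes. An adjusted p under 0.05, the call used throughout, was not reached. Without no-sgRNA replicate 4 the log2 ratio of Scn2a was 0.29 (edgeR adjusted p 0.277). The authors' deposited table, which compares 8 samples including the 6 counted here, gives Scn2a a log2 ratio of 0.62 with an adjusted p of 0.00138, under the threshold. Of the 14 neuroblastoma and neuron markers, 11 were tested, 3 were higher and 1 was lower with CRISPRa, and their summed level was 2182 to 2299 CPM with CRISPRa and 2191 to 2338 CPM without the guide. Nefl and Nefm of that list had at most 1 and 6 counts in any library. Markers of fibroblasts summed to 14.6 to 21.4 CPM with CRISPRa and 28.6 to 32.4 CPM without, with 2 of the 4 tested lower, and 1 endothelial marker was higher. Their part in the results was not tested. Those of astrocytes, oligodendrocytes, macrophages and endothelium each summed to at most 13.7 CPM, and Mag, Cx3cr1 and Kdr were at 0 in every library.

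As background, beta subunits are single-pass membrane proteins with an immunoglobulin-like domain that modulate channel gating and trafficking. The FHFs resemble secreted fibroblast growth factors in sequence but stay inside the cell, where they bind the C-terminal tail of the alpha subunit and shift its inactivation. Ankyrin-G holds the channels at the axon initial segment and at nodes of Ranvier, and beta-IV spectrin ties ankyrin-G to the actin cortex. Nedd4l binds a proline-rich motif in the channel tail, and ubiquitination by it leads to removal of the channel from the membrane.

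The results turn on the FHF family, whose 4 genes are paralogs, so the stretch of their coding sequence with the most shared bases was compared to show how far reads of one can be mistaken for another. The 60 bases lie in exon 4 of the GENCODE M21 transcript marked principal for each gene, are read on the coding (minus) strand of GRCm38 and are printed 5′ to 3′. Capitals mark the 37 positions at which all 4 genes have the same base.
Fgf11 (chr11:69798583-69798642): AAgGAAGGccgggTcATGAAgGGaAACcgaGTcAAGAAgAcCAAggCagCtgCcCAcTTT
Fgf12 (chr16:28189453-28189512): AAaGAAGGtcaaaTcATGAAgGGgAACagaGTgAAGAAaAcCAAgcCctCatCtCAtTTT
Fgf13 (chrX:59067420-59067479): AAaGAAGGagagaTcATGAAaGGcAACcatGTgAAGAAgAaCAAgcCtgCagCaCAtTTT
Fgf14 (chr14:123983788-123983847): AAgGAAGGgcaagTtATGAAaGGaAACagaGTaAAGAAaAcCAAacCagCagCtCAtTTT

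Fgf11 differed from Fgf12, Fgf13 and Fgf14 at 16, 16 and 13 of these 60 positions. Over their aligned coding bases the 4 genes were 66.1% to 72.9% identical in pairs, and the longest identical run between any of their annotated transcripts was 28 bases. No 50-base word of Fgf14 and 0.356% of those of Fgf11 occur in transcripts of another gene, and the gene sharing most with Fgf11 (Fam229b) is no FHF. No shared word of 50 bases led from one FHF to another, since the longest identical run was shorter.

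Fgf11, the shortest of the FHF genes (chromosome 11, 69796068 to 69801857, minus strand, protein coding, GRCm38), was the one gene of the 8 that changed. It had 746, 681 and 331 counts in CRISPRa replicates 2, 3 and 5, or 21.7, 20.9 and 10.2 CPM. In no-sgRNA replicates 2, 3 and 4 it had 1011, 975 and 1425 counts, or 33.1, 32.8 and 45.0 CPM. Each CRISPRa library lay below each control library. Groups without overlap were found for 36.4% of all tested genes and for 1 of the 5 tested here. The libraries that stand apart held both extremes of Fgf11, CRISPRa replicate 5 the lowest value and no-sgRNA replicate 4 the highest. The mean fell from 37.0 ± 6.95 to 17.6 ± 6.39 CPM (SD, n = 3). The log2 ratio from edgeR's quasi-likelihood test was -1.07 (SE 0.21, adjusted p 0.00232), or 0.475 times the control level with a 95% interval of 0.350 to 0.646. An exact permutation test on the group means, two-sided, gave p = 0.1, the smallest that 3 libraries against 3 allow.

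The size of the Fgf11 decrease depended on the 2 outlying libraries more than its call did. The log2 ratio was -0.79 without CRISPRa replicate 5 (edgeR adjusted p 0.000962) and -0.91 without no-sgRNA replicate 4 (adjusted p 0.0194). With both left out it was -0.63 (adjusted p 8.29e-05), so the decrease was smaller but passed the threshold among the libraries numbered 2 and 3. Changed genes made up 18.7% of the 15117 tested in this comparison, 9.47% higher and 9.25% lower, and 1 of the 5 tested channel-auxiliary genes is close to that share. In the authors' deposited table, in which 28.6% of genes with an adjusted p are under 0.05, Fgf11 was the one gene of the 5 under it, with a log2 ratio of -0.86 (SE 0.266, adjusted p 0.00673). That table includes the same 6 samples, so it is not an independent reading.

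The interferon-stimulated genes, which cells induce on sensing foreign nucleic acid, moved with the groups in the same libraries. All 18 listed were higher with CRISPRa, and their summed level was 2297 to 2731 CPM against 262 to 292 CPM without the guide. Their part in the Fgf11 decrease was not tested.

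The 250 bases before the RefSeq start of Fgf11 (GRCm38.p6, chr11:69802281-69802530, minus strand) are printed because Fgf11 is the gene that changed; the CpG dinucleotides are in capitals.
Fgf11 upstream: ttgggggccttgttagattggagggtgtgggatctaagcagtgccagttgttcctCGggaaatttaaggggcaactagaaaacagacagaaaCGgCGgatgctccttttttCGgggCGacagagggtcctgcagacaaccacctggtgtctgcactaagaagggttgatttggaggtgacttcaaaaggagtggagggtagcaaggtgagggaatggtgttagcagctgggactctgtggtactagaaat

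This window ends 423 bases upstream of the start of the GENCODE gene. It holds 5 CpG dinucleotides, against a median of 6 over the 32851 RefSeq promoter windows of the same length. Neither ACGTG nor GCGTG occurs in it on either strand, and these letters are present in 16.6% and 28.2% of all windows. The core of the interferon-stimulated response element was not found in it either, and 2.98% of all windows hold it. Other sequence around the gene was not searched, and a role of these motifs in the Fgf11 decrease was not tested. RefSeq windows were matched for 5 of the 8 genes, all but Scn3b, Ank3 and Nedd4l.

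**Figure D1:**
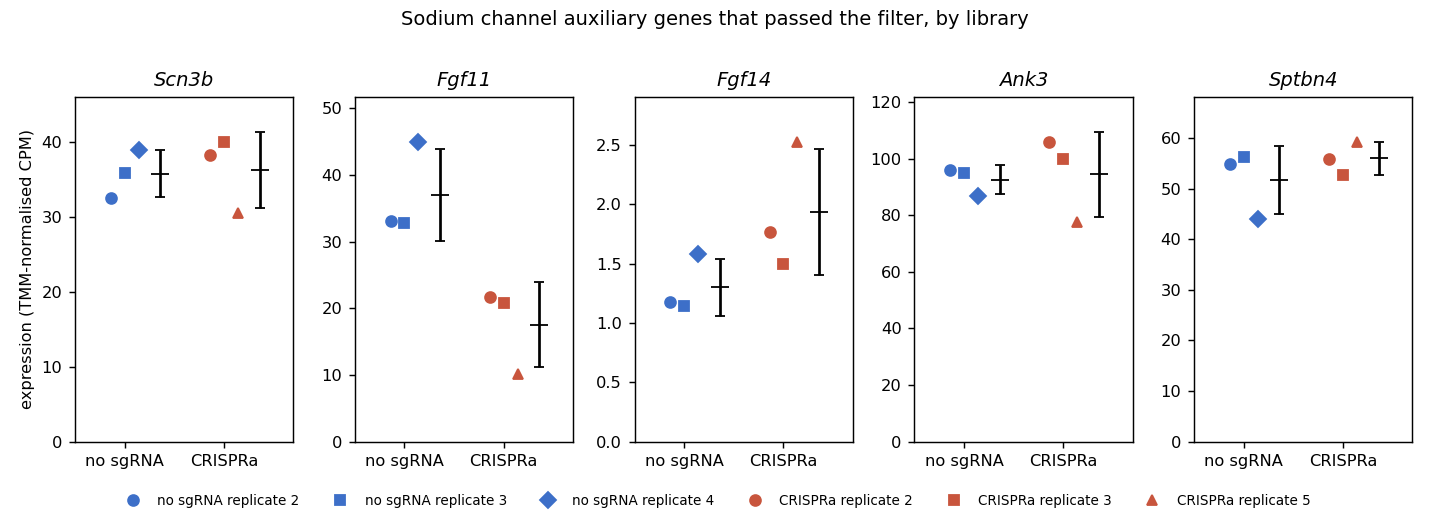
TMM-normalised CPM (y axis, from 0, a separate scale for each gene) of Scn3b, Fgf11, Fgf14, Ank3 and Sptbn4 in the 3 no-sgRNA libraries (blue) and the 3 CRISPRa libraries (red), with the mean and SD of each group in black. For Fgf11 the CRISPRa libraries lie between 10.2 and 21.7 CPM and the control libraries between 32.8 and 45.0 CPM, while for the other genes the groups overlap. Of all tested genes, 36.4% had groups that did not overlap.

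Fgf14, the second FHF detected (chromosome 14, 123977907 to 124677127, minus strand), was low in all libraries. It had 61, 49 and 82 counts with CRISPRa and 36, 34 and 50 without the guide, or 1.77, 1.5 and 2.53 CPM against 1.18, 1.14 and 1.58 CPM. The control library with the most Fgf14, replicate 4, lay above CRISPRa replicate 3, so the groups overlapped. Its log2 ratio was 0.57 (SE 0.34, edgeR adjusted p 0.275), and the 95% interval of the ratio, from 0.900 to 2.44, covers both a small decrease and a more than 2-fold increase. Without CRISPRa replicate 5 the log2 ratio was 0.34 (adjusted p 0.621). For Fgf14 the authors' deposited table gives 0.68 (adjusted p 0.0832). Exons of Gm28932 on the opposite strand cover 5.26% of the Fgf14 exons, and use of strand in the counting is not given in the sources used here.

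Fgf12 (chromosome 16, 28160098 to 28753068) and Fgf13 (chromosome X, 59062145 to 59568071) had 0 counts in all 6 libraries. A count of 0 allows up to 3 counts, or 0.0871 to 0.101 CPM in these libraries. Transcripts of the 2 genes were thus not detectable at this depth in either group. These limits cover counting error only, and they would be higher if both mates of a read pair were counted, which the sources used here do not state (74.3% of counts from 1 to 10 were even).

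Per kilobase of exon, which allows genes to be compared, Fgf11 supplied most FHF transcript. The Fgf14 share of the FHF sum was 5.62%, 4.98% and 15.3% in CRISPRa replicates 2, 3 and 5 and 2.53%, 2.48% and 2.49% in no-sgRNA replicates 2, 3 and 4. All CRISPRa libraries lay above all controls, among which the share hardly varied. The mean share was 8.62% ± 5.77 with CRISPRa and 2.5% ± 0.0262 without the guide (SD, n = 3), and the exact two-sided permutation p of the 6.13 percentage-point difference was 0.1. CRISPRa replicate 5 sets much of that mean, and without it the difference was 2.80 percentage points. Of the 2 genes in the share, Fgf11 passed the test for a change and Fgf14 did not. The FHF sum was 6.23 ± 1.98 CPM per kilobase with CRISPRa against 12.5 ± 2.34 CPM per kilobase without (SD, n = 3; exact permutation p = 0.1). With Fgf12 and Fgf13 at 0, the share and the sum depend on Fgf11 and Fgf14 alone, and Fgf11 makes up most of the sum. Neither is thus a result separate from the Fgf11 decrease.

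**Figure D2:**
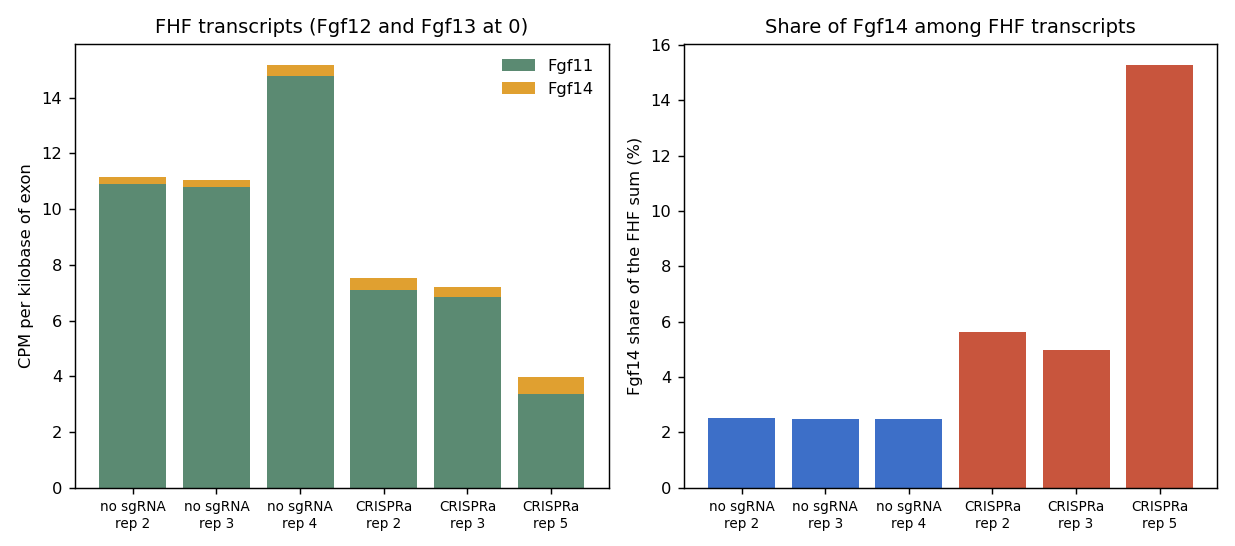
Left, stacked bars of Fgf11 and Fgf14 CPM per kilobase of exon in each library; right, the Fgf14 share of the FHF sum in percent. The summed bars of the CRISPRa libraries are all shorter than those of the controls, and the Fgf14 share is 15.3% in CRISPRa replicate 5 and at most 5.62% in the other libraries.

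Genes whose profile over the 6 libraries was most like that of Fgf11 were Nxph4, a neurexophilin, and Aldoc, the glycolytic enzyme aldolase C. Likeness was the root mean square difference of log2 CPM after centring each gene on its mean, which was 0.0836 for Nxph4 and 0.0987 for Aldoc, the smallest among 12857 candidate genes. Nxph4 stood at 10.8, 9.56 and 4.75 CPM with CRISPRa and at 16.9, 17.6 and 20.9 CPM without the guide. Aldoc stood at 79.6, 70.0 and 32.1 CPM against 104, 113 and 135 CPM. Both had their lowest value in CRISPRa replicate 5 and their highest in no-sgRNA replicate 4, like Fgf11. Since they were chosen for this likeness over the same libraries, the shared pattern follows from the choice and is no separate result.

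**Figure D3:**
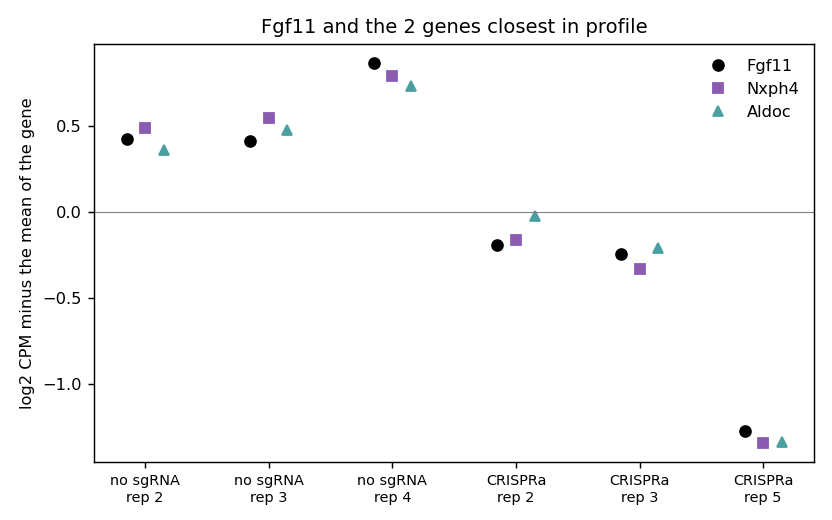
Log2 CPM of Fgf11, Nxph4 and Aldoc in each library after subtraction of the mean of the gene. For each of the 3 genes, all controls lie above 0, all CRISPRa libraries below it and CRISPRa replicate 5 lowest. Nxph4 and Aldoc were chosen for their likeness to Fgf11 in these libraries.

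Scn3b (chromosome 9, 40269217 to 40291618, plus strand), a beta subunit gene, did not pass the test. It stood at 38.3, 40.0 and 30.5 CPM in CRISPRa replicates 2, 3 and 5 and at 32.5, 35.8 and 38.8 CPM in no-sgRNA replicates 2, 3 and 4. The highest and the lowest of the 6 values were both CRISPRa libraries. The log2 ratio was 0.021 (SE 0.11, edgeR adjusted p 0.920), and the 95% interval of the ratio ran from 0.867 to 1.19. Its sign turned when CRISPRa replicate 2, CRISPRa replicate 3 or no-sgRNA replicate 2 was left out (-0.0081, -0.047 and -0.044). The log2 ratio was 0.14 without CRISPRa replicate 5. Scn2b and Scn4b, which encode beta subunits that link to the alpha subunit by a disulfide bond, had 0 counts in every library.

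Beta subunits are cleaved by the beta-secretase Bace1 and then by gamma-secretase, to which Psen2 and Ncstn contribute. None of these 3 genes passed edgeR's adjusted threshold, while Psen2 and Ncstn had an unadjusted p under 0.05 and did not overlap between groups, as 36.4% of all tested genes did not. DESeq2 and limma-voom each called Psen2. Ncstn, the most abundant of the list, averaged 110 ± 0.291 CPM in the CRISPRa libraries and 99.6 ± 1.46 CPM in the controls (SD, n = 3), a log2 ratio of 0.15 (edgeR adjusted p 0.108).

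Ank3 (chromosome 10, 69398773 to 70027438, plus strand) had the most counts of the 8 genes. Its level was 106, 99.8 and 77.5 CPM with CRISPRa and 96.0, 94.9 and 86.8 CPM without the guide. CRISPRa libraries again held both the highest and the lowest value, with replicate 5 lowest. The log2 ratio was 0.029 (SE 0.10, edgeR adjusted p 0.876, 95% interval of the ratio 0.883 to 1.18), and 0.16 without CRISPRa replicate 5. Removal of the gene-length trend of each library turned the log2 ratio over all libraries to -0.20 (adjusted p 0.145), and Ank3 is among the longest genes, with 34838 exonic bases. GENCODE M21 lists 47 Ank3 transcripts, and counts per gene do not separate the long neuronal isoforms from the short ones.

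Ank2, the gene of ankyrin-B, rose in the same libraries. It stood at 88.9, 98.1 and 101 CPM with CRISPRa and at 75.1, 68.6 and 55.7 CPM without. The groups did not overlap for Ank2, nor for 36.4% of all tested genes. Its log2 ratio was 0.53 (SE 0.10, edgeR adjusted p 0.00148), and it passed in all 16 alternative fits. Removal of the gene-length trend lowered the value most, to 0.31 (adjusted p 0.00867). Per kilobase, Ank3 made up 58.3% ± 2.57 of ankyrin transcript in the controls and 49.1% ± 5.63 with CRISPRa (SD, n = 3), and Ank2 40.8% ± 2.27 and 49.3% ± 5.19. The Ank3 share was 53.9%, 50.4% and 42.9% in the CRISPRa libraries, each below the controls at 56.0%, 57.8% and 61.1% (exact permutation p = 0.1, the smallest possible). Ank1 supplied the remainder, at 1.65% with CRISPRa and 0.904% in the controls. With so little Ank1, the Ank3 share falls whenever the Ank2 share rises, so it is no separate result. Of these genes Ank2 passed the test for a change and Ank3 did not.

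Sptbn4 (chromosome 7, 27356383 to 27447686, minus strand) stood at 55.8, 52.7 and 59.3 CPM with CRISPRa and at 54.8, 56.1 and 44.0 CPM without the guide. The groups overlapped, and no-sgRNA replicate 4 was the low value. Its log2 ratio was 0.11 (SE 0.09, edgeR adjusted p 0.443, 95% interval of the ratio 0.942 to 1.24), and -0.031 among the 4 libraries numbered 2 and 3. With no-sgRNA replicate 4 left out it was 0.011. Other genes cover 3.94% of the Sptbn4 exons. Among beta spectrins per kilobase, Sptbn4 made up 14.4% ± 1.31 with CRISPRa and 14.5% ± 1.42 without (SD, n = 3; exact permutation p = 1.0). Sptbn1, the spectrin of most cell types, supplied 84.4% ± 1.61 and 84.3% ± 1.56. Of the other ankyrin and spectrin genes, 7 were tested, and Ank2 was the 1 that changed.

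Nedd4l (chromosome 18) had 0 counts in 5 libraries and 6 counts in no-sgRNA replicate 3. It did not pass the filter, and its level was at or near the limit that a count of 0 allows in both groups. Its close paralog Nedd4 averaged 284 ± 4.93 CPM in the CRISPRa libraries and 287 ± 10.9 CPM in the controls (SD, n = 3), a log2 ratio of -0.011 (edgeR adjusted p 0.926). Per kilobase, Nedd4 supplied 26.6% and Smurf1 24% of the transcript of the 9 NEDD4 family ligases in the CRISPRa libraries. Of the 8 other ligases, 6 were tested and 0 changed by edgeR, DESeq2 or limma-voom, with 0 at an unadjusted edgeR p under 0.05. Hecw1 and Hecw2 had at most 2 counts in any library.

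**Figure D4:**
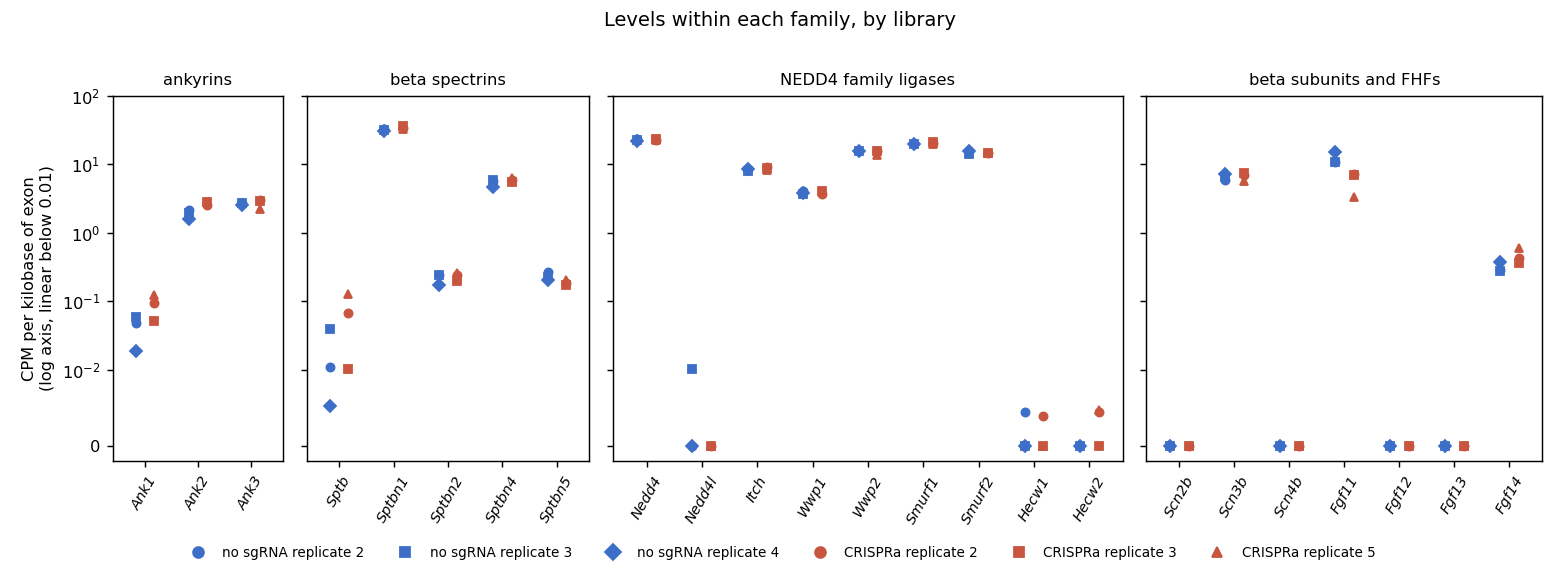
CPM per kilobase of exon (log axis, linear below 0.01) of each ankyrin, beta spectrin, NEDD4 family ligase, beta subunit and FHF gene in each library, no sgRNA in blue and CRISPRa in red. Scn2b, Scn4b, Fgf12 and Fgf13 lie at 0 in every library and Nedd4l in all but no-sgRNA replicate 3.

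Ordered by level per kilobase in the controls, Fgf11 came first at 12.2 ± 2.28 CPM per kilobase, before Scn3b at 6.54 ± 0.575, Sptbn4 at 5.40 ± 0.694, Ank3 at 2.66 ± 0.144 and Fgf14 at 0.311 ± 0.0578 (SD, n = 3). Scn3b and Sptbn4 differed by less than the sum of their SDs. With CRISPRa the 3 highest differed from each other by less than the sum of their SDs, at 6.64 ± 0.924 for Scn3b, 5.85 ± 0.344 for Sptbn4 and 5.77 ± 2.10 for Fgf11. For scale, the alpha subunit genes Scn8a and Scn9a were at 3.35 ± 0.343 and 3.06 ± 0.261 CPM per kilobase in the controls and Scn2a at 0.436 ± 0.102. The exon length used is that of all annotated exons together, which understates the level of genes such as Ank3 whose isoforms each use a part of them.

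The other genes of the pathway were read from the same fit. Of 62 listed partner genes in 8 groups, 48 were tested and 11 (22.9%) changed, 7 higher and 4 lower, beside 18.7% of all tested genes. The median log2 ratio of the 48 was 0.082, against -0.0071 over all tested genes. Without CRISPRa replicate 2, 7 partner genes passed, all among the 11. Without CRISPRa replicate 5, 7 passed as well, of which 6 were among the 11 and Psen2 was not. The fit without the low-count filter called 15, 11 higher and 4 lower. The authors' deposited table, which includes the same samples, has 17 of 47 partner genes below 0.05 in adjusted p, 14 higher and 3 lower. Among them are 10 of the 11, all but Csnk2b.

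Sgk1, the kinase that phosphorylates Nedd4l and so weakens its binding to channels, had the largest fold change among the partner genes that changed. It stood at 148, 132 and 123 CPM with CRISPRa and at 48.4, 54.6 and 49.5 CPM without the guide. The groups were far apart relative to their spread, with a log2 ratio of 1.40 (SE 0.08, edgeR adjusted p 8.25e-09), or 2.64 times the control level. Ywhag, one of the 14-3-3 proteins that bind phosphorylated Nedd4l, rose from 585 ± 10.8 to 739 ± 18.2 CPM (SD, n = 3; log2 ratio 0.34, edgeR adjusted p 0.00107). These were the 2 changed genes among 10 tested Nedd4l regulators, and the Nedd4l transcript was at or near 0 in the same libraries. Both passed in all 16 alternative fits.

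L1cam, a cell adhesion molecule that binds ankyrins, rose from 424 ± 58.9 to 652 ± 19.1 CPM (SD over n = 3 libraries), which is a log2 ratio of 0.62 (SE 0.09, edgeR adjusted p 0.000167). Of 8 tested genes for initial segment and node proteins, Ndel1, which binds dynein, was the other that changed (log2 ratio 0.22, adjusted p 0.0470). Nfasc and Nrcam, the ankyrin-binding molecules of the initial segment itself, were low, at 2.27 ± 0.575 and 3.70 ± 0.309 CPM in the controls (SD, n = 3), and did not pass. Chl1, Cntn1 and Kcnq3 had 0 counts in all libraries.

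Among FGF receptors, Fgfr3 fell from 78.6 ± 3.61 to 55.2 ± 5.16 CPM (SD, n = 3; log2 ratio -0.51, edgeR adjusted p 0.000591), and the decoy receptor Fgfrl1 from 65.9 ± 2.92 to 50.8 ± 8.28 CPM (log2 ratio -0.38, adjusted p 0.0184). Without CRISPRa replicate 5 the log2 ratio of Fgfrl1 was smaller, at -0.24, and did not pass (edgeR adjusted p 0.0516). Without no-sgRNA replicate 3 it was -0.34 and did not pass either (adjusted p 0.0840). Mapk8ip2, a MAP kinase scaffold that binds FHFs, rose from 35.6 ± 1.92 to 42.9 ± 1.06 CPM (SD, n = 3; log2 ratio 0.27, adjusted p 0.0301). These 3 were the changed genes among 5 tested in the group. Fgfr1 went the other way from Fgfr3, from 15.7 ± 0.955 to 17.5 ± 1.13 CPM per kilobase (SD, n = 3), with overlap between the groups. Its unadjusted edgeR p was under 0.05, but it did not pass after adjustment. For Fgfr1 the authors' deposited table gives a log2 ratio of 0.23 (adjusted p 0.00013).

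Csnk2a2 and Csnk2b, subunits of casein kinase 2, which phosphorylates the ankyrin-binding loop of the channel, fell (log2 ratios -0.24 and -0.25, edgeR adjusted p 0.0234 and 0.0263), and Csnk2a1 had a value of -0.0015 (adjusted p 0.990). In the authors' deposited table Csnk2a2 passed (-0.19, adjusted p 0.00231) and Csnk2b did not (-0.14, adjusted p 0.0809). The palmitoyltransferases of ankyrin-G, Zdhhc5 and Zdhhc8, did not pass (0.035 and -0.15).

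The smaller of these partner changes mostly lost the threshold when a library was left out. Mapk8ip2, Ndel1, Csnk2a2 and Csnk2b each passed in 1 of the 6 such fits. Their log2 ratios in those fits kept their direction, from 0.24 to 0.31 for Mapk8ip2, 0.17 to 0.26 for Ndel1, -0.29 to -0.19 for Csnk2a2 and -0.29 to -0.19 for Csnk2b. The fit that passed was the one without no-sgRNA replicate 3 for Mapk8ip2 (edgeR adjusted p 0.0424) and Csnk2a2 (0.0260), and the one without no-sgRNA replicate 2 for Ndel1 (0.0473) and Csnk2b (0.0302). In the 10 other alternatives they passed in 8, 9, 10 and 7, and removal of the gene-length trend was one that took Csnk2b over the threshold (adjusted p 0.0754).

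**Figure D5:**
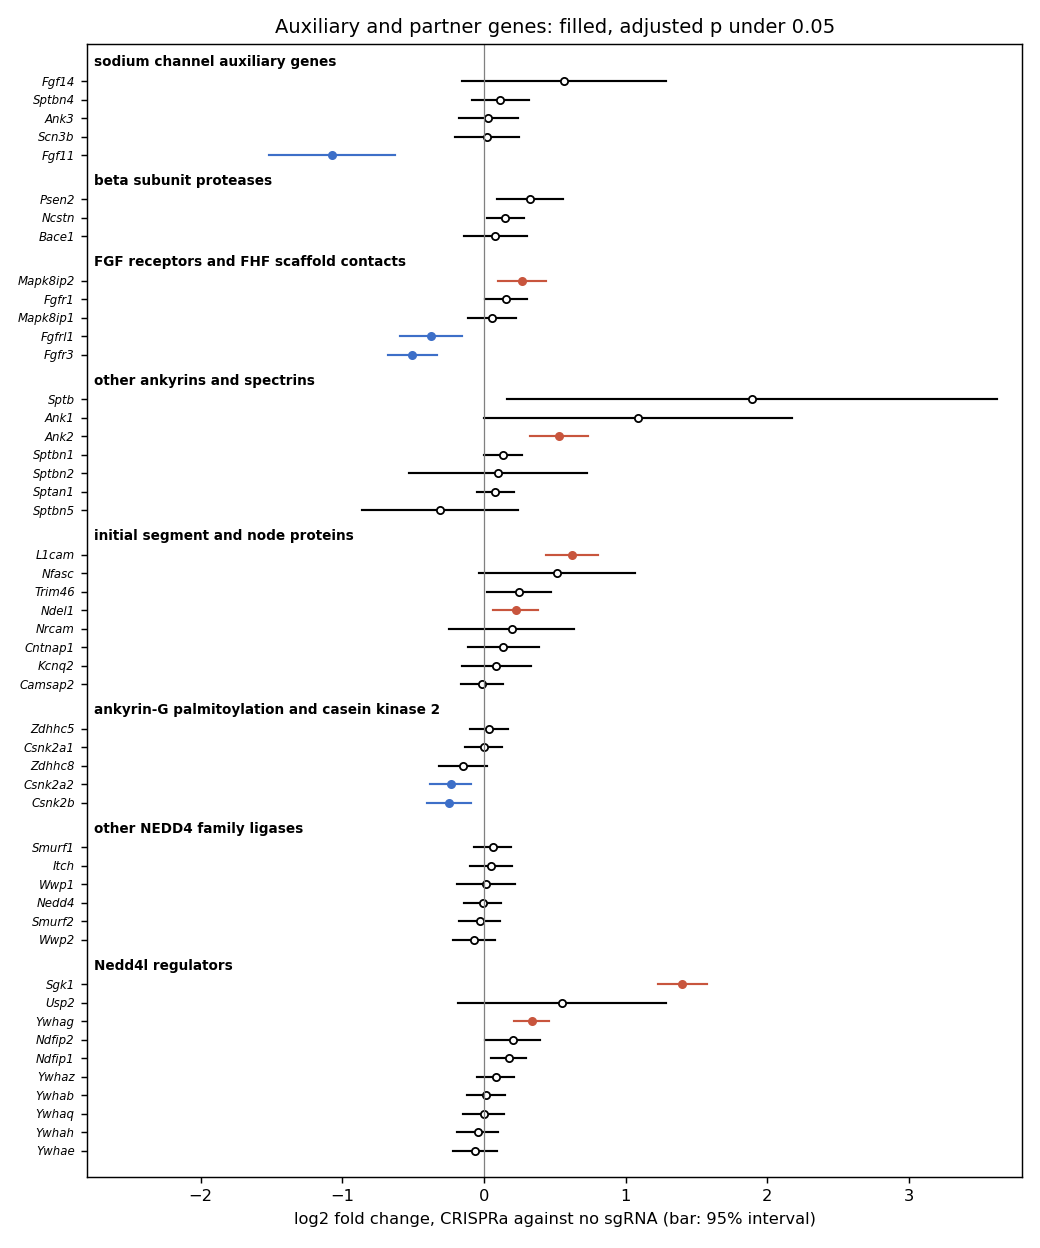
Log2 ratio with its 95% interval (x axis) for the tested genes reported here, in groups, from edgeR's quasi-likelihood fit of 3 CRISPRa against 3 no-sgRNA libraries. Filled points passed an adjusted p of 0.05, red higher and blue lower with CRISPRa; Fgf11 at -1.07 is the 1 filled point of the 5 auxiliary genes, and Sgk1 at 1.40 lies farthest to the right among filled points.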

How the data were processed

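Poly(A)-enriched RNA was sequenced, per the labels' protocols. The authors deposited a table of raw counts per gene for 6 of the 8 samples. STAR 2.5.1b, featureCounts and mm10 are named in the submitters' processing notes; annotation, strand use and pair handling are not given in the sources used here. Of the counts from 1 to 10, 74.3% were even. The same deposited table gives exon lengths. A second deposited table holds the authors' comparison over 8 samples, per the file headers with the columns of DESeq2: a signal (mean normalised count), log2 fold changes, a Wald score and p-values. Its direction is not stated and was read as CRISPRa against no sgRNA, since all 18 interferon genes are positive in it.

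Counts were fitted with edgeR 4.0.16 (glmQLFit, glmQLFTest) in R 4.3.3, with filterByExpr, TMM factors and Benjamini-Hochberg adjustment over 15117 genes. SE is the log2 fold change divided by the square root of F. CPM are TMM-normalised. Per-kilobase values divide CPM by the deposited length. The 3-against-3 design cannot give an exact permutation p below 0.1. Gene spans in the count table match GENCODE M21 (GRCm38). The code was tested on simulated data.

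Samples were grouped by title. The genes and lists were chosen with earlier results of these data known. Named were all 8 genes, Scn2a, per partner list the changed genes (at most 4) or else the most abundant, and for Fgf11 the 2 closest profiles among genes of at least 1 CPM (pseudocount 0.5). Genes at 0, overlapping but unchanged partners and shares within ankyrin, spectrin and ligase families were chosen after their values were seen. Alternatives were scaling by RLE, by the upper quartile or by library size alone, a fit without the low-count filter, a minimum of 1 CPM in at least 4 libraries, DESeq2 1.42.0, limma-voom 3.58.1, removal of the gene-length trend (lowess, span 0.2), each library left out, a replicate block and thresholds of 0.01 and 0.1. Some genes that enter the counts over the lists are not reported here.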

Additional observations from a re-analysis of the deposited data

How the results depend on the processing

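Fgf11 was the 1 changed gene of the set in each of 18 alternatives, with log2 fold changes from -1.24 to -0.63 and adjusted p from 1.91e-20 (no filter) to 0.0205 (DESeq2). Values that did not pass turned sign for Scn3b (leaving out 1 library gave -0.047 to 0.14), Ank3 (-0.20 with the gene-length trend removed; -0.051 to 0.16 leaving out 1 library) and Sptbn4 (-0.031 in both fits of the 4 libraries numbered 2 and 3). For Scn2a the adjusted p lay between 0.0542 and 0.277 over 16 fits, none of which called it, and its log2 ratio was 0.29 without no-sgRNA replicate 4; the authors' deposited table over 8 samples does call it (adjusted p 0.00138). Changed partner genes numbered 6 at an adjusted p under 0.01 and 7 to 10 when 1 library was left out; changed genes in all numbered 1417 at 0.01, and 1987 to 2518 with 1 library left out. The Fgf14 share difference was 2.80 to 7.95 percentage points leaving out 1 library and 7.98 from raw counts. Whether equal replicate numbers mark pairs is not stated in the labels. The replicate 2 against 3 difference had a correlation of 0.0044 between the groups over 15117 genes, a single value that cannot settle this. With the replicate block on those 4 libraries, Fgf11 was at -0.63 (edgeR adjusted p 5.63e-07), 1 gene of the set, 15 partner genes and 3170 genes in all changed, Scn2a was at 0.36, and the paired Fgf14 share difference was 2.80 percentage points. Below about 3 counts per library no level could be told from 0.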

Other observations

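The FHFs belong to the larger family of fibroblast growth factor genes, whose other members are mostly secreted ligands; these were looked at after the values of the FHFs were known. Of 18 such Fgf genes in the count table, 6 passed the filter and 7 had 0 counts in all libraries. Of the 6 tested, 0 changed by edgeR, DESeq2 or limma-voom, and 1, Fgf22, had an unadjusted edgeR p under 0.05. Fgf1, which acts through all FGF receptors, was the most abundant of them, with means of 14.5 ± 2.91 (CRISPRa) and 14.6 ± 0.819 CPM (no sgRNA; SD, n = 3); its log2 ratio was -0.011, with SE 0.14 and an edgeR adjusted p of 0.968. Fgf22 had 159, 78 and 91 counts in CRISPRa replicates 2, 3 and 5 and 162, 138 and 146 in no-sgRNA replicates 2, 3 and 4, with overlap between the groups (log2 ratio -0.57, adjusted p 0.126). In control cells Fgf11, at 37.0 ± 6.95 CPM, was thus above every other Fgf gene of the table on the CPM scale.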
